A study of Mus musculus with 6 samples.

Results

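The adult globin genes Hba-a1, Hba-a2, Hbb-b1, Hbb-b2 and Hbb-bs were followed across 6 RNA sequencing libraries of F4/80+ mouse bone marrow cells. They were chosen by gene symbol, and all 5 are among the 11489 genes of the deposited table. The cells were sorted by flow cytometry on the macrophage surface protein F4/80 and on eGFP from a reporter named for Epor, the gene of the erythropoietin receptor. The F4/80+ Epor-eGFP+ group held 3 libraries and the F4/80+ Epor-eGFP- group held 3. The labels call both groups erythroblastic island macrophages from bone marrow. The labels do not describe the reporter allele or what drives it. The sources used here do not give the strain, the age or the sex of the mice, how many animals a library pooled, or whether replicate libraries had separate animals behind them. P-values therefore set a difference only against the spread among these 6 libraries, and part of that spread may be technical. The column names number the libraries of each group 0, 1 and 2, and the libraries are called by that number.

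Adult haemoglobin is a tetramer made of a pair of alpha chains, from Hba-a1 and Hba-a2, and a pair of beta chains, from the Hbb genes, each holding a heme. Erythroblasts transcribe the alpha and beta clusters together during terminal maturation, and reticulocytes keep globin mRNA after the nucleus is expelled. In an erythroblastic island, erythroblasts mature around a central macrophage, which takes up the expelled nuclei. Macrophages are not known for transcribing globins at the level of erythroid cells.

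Hba-a1 lies on chromosome 11 from 32283511 to 32284465 and Hba-a2 from 32296489 to 32297298, both on the plus strand (GENCODE M21, GRCm38). Hbb-bs is a minus-strand gene of chromosome 7 (103826534 to 103828096). That annotation holds 3 of the 5 symbols and lists Hbb-bs and Hbb-bt as the 2 adult beta genes. Hbb-b1 and Hbb-b2 are the names of the adult beta genes of another mouse haplotype, and no source used here names the annotation behind the authors' values. How reads were divided among the 3 beta symbols is therefore unknown, and the sum of the 3 is safer than any of them.

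The copies are also nearly the same in sequence. The coding sequences of Hba-a1 and Hba-a2, of 429 bases each, differed at 1 base (99.8% identity), written C381T with positions counted from 1 at the start codon, the Hba-a1 base first. Of 650 stretches of 50 bases along the Hba-a1 transcript, 439 (67.5%) also occur exactly in that of Hba-a2. The stretch from coding base 351 to 410 is shown for both because it holds the single base, in capitals, that tells the coding parts apart.
Hba-a1: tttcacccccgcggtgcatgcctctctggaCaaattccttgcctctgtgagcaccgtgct
Hba-a2: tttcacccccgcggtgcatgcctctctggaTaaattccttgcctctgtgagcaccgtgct
The adult beta genes of the same annotation, Hbb-bs and Hbb-bt, also differed at 1 of 444 coding bases, C417T with the Hbb-bs base first, here from coding base 385 to the stop codon at 444.
Hbb-bs: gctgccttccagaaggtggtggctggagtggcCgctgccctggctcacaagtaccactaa
Hbb-bt: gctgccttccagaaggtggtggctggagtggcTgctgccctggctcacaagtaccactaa
Hbb-bt was not analysed here. A single gene's value within the alpha pair or the beta trio is thus uncertain, while alpha and beta sequences are distinct.

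Promoter stretches of an alpha and a beta gene are shown because the genes of both clusters moved together across the libraries. Both come from RefSeq (GRCm38.p6), read 5′ to 3′ along the gene and end 3 bases before its RefSeq start, and the beta stretch is shorter because GENCODE places an exon of another Hbb-bs transcript just upstream. Capitals mark the CACCC box, the CCAAT box, the TATA-like letters ATATAA and the letters GATA.
Hba-a2, chr11:32296369-32296488, plus strand: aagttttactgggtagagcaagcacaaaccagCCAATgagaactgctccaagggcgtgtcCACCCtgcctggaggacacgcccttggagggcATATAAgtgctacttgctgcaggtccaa
Hbb-bs, chr7:103827932-103828011, minus strand: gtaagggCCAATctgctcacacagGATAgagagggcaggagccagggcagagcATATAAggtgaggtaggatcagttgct
The Hba-a2 stretch occurs letter for letter in the Hba-a1 sequence of the same table. Each motif was searched on both strands over 120 bases, and the hits do not overlap each other in these 2 genes. ATATAA began 31 bases before the start of Hba-a2 and 30 before that of Hbb-bs, CCAAT 91 and 76 bases before it, and CACCC 63 and 90 bases before it, the CACCC of Hbb-bs being upstream of the stretch shown. GATA was found in Hbb-bs, 59 bases before the start, and not in these letters of Hba-a2. Of 32851 RefSeq promoters, windows of the same length held ATATAA in 4.49%, CCAAT in 21.4%, CACCC in 31.7% and GATA in 29.7%. These matches are descriptions of the letters and not of bound sites.

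Levels are in the authors' FPKM, which scale fragments by gene length and by library size, so they can be compared between genes per length. Total FPKM ran from 467176 to 501037 in the Epor-eGFP+ libraries and from 505141 to 519650 in the Epor-eGFP- libraries, and the read depth is unknown. The labels were checked on Epor, with values of 6.67, 3.43 and 7.78 FPKM in Epor-eGFP+ libraries 0, 1 and 2, against 0.375, 0.414 and 0.217 FPKM in Epor-eGFP- libraries 0, 1 and 2. Of 18 macrophage markers, none of them at 0 in any library, 14 were higher in Epor-eGFP+ cells, 0 lower and 4 without a call. Over all 10964 tested genes 22.7% were called higher and 26.3% lower. In a fit with a replicate block for the column number 16 markers were higher and 1 lower, against 28.0% and 30.4% of all tested genes. Adgre1, the gene of F4/80 itself, was among the markers without a call (log2 fold change 0.23, limma adjusted p = 0.463). The summed FPKM of the 18 markers ran from 2624 to 8883 in Epor-eGFP+ libraries and from 677 to 925 in Epor-eGFP- libraries. Neutrophil markers summed to 20888 to 26708 FPKM in Epor-eGFP+ libraries and to 26357 to 40763 FPKM in Epor-eGFP- libraries, so both sorts also held granulocyte transcripts. These markers were split. Of 17 tested, 4 were higher in Epor-eGFP+ cells (Elane, Mpo, Prtn3 and Ctsg) and 11 lower, and with the block 4 and 13. In such bulk samples, fewer cells of a type and less RNA per cell cannot be told apart.

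Every adult globin gene was higher in the Epor-eGFP+ than in the Epor-eGFP- library of the same number, but the groups overlapped for each of them. Summed over the 5 genes, globin FPKM was 727, 216 and 1686 in Epor-eGFP+ libraries 0, 1 and 2, against 63.1, 32.2 and 771 in Epor-eGFP- libraries 0, 1 and 2. Epor-eGFP- library 2 thus lay above Epor-eGFP+ libraries 0 and 1, while the other Epor-eGFP- libraries lay below all Epor-eGFP+ libraries. The fold between libraries of the same number was 11.5 for number 0, 6.73 for number 1 and 2.19 for number 2. The globins took 0.155%, 0.0463% and 0.336% of the total FPKM in Epor-eGFP+ libraries 0, 1 and 2, against 0.0121%, 0.00637% and 0.149% in Epor-eGFP- libraries 0, 1 and 2.

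Hba-a1, the alpha gene with the higher values, had 259, 73.6 and 562 FPKM in Epor-eGFP+ libraries 0, 1 and 2, against 21.1, 12.9 and 258 FPKM in Epor-eGFP- libraries 0, 1 and 2. Epor-eGFP- library 2 was level with Epor-eGFP+ library 0 and above library 1 of that group. The fold between libraries of the same number was 12.3 for number 0, 5.72 for number 1 and 2.18 for number 2. Its mean was 298 ± 247 FPKM in Epor-eGFP+ cells and 97.3 ± 139 FPKM in Epor-eGFP- cells (SD, n = 3 each), so the SDs were of the size of the difference between the groups. The limma log2 fold change on log2(FPKM + 1) was 2.37 (95% interval −0.45 to 5.19, adjusted p = 0.139).

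Hba-a2, the downstream alpha gene, had 49.9, 24.8 and 183 FPKM in Epor-eGFP+ libraries 0, 1 and 2, against 2.27, 0.00195 and 88.8 FPKM in Epor-eGFP- libraries 0, 1 and 2. Again Epor-eGFP- library 2 lay among the Epor-eGFP+ libraries. The log2 fold change was 3.23 (95% interval −0.59 to 7.04, adjusted p = 0.137), and no fold is given for number 1, whose Epor-eGFP- value is close to 0.

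Hbb-b1, the beta symbol with the most signal, had 308, 106 and 701 FPKM in Epor-eGFP+ libraries 0, 1 and 2, against 28.3, 15.2 and 345 FPKM in Epor-eGFP- libraries 0, 1 and 2. Its log2 fold change was 2.38 (95% interval −0.44 to 5.20, adjusted p = 0.138), close to that of Hba-a1. In Epor-eGFP+ library 2 it ranked 117 of 11489 genes by FPKM, and in Epor-eGFP- library 1 it ranked 4876. Epor-eGFP- library 2, where it ranked 227, lay above Epor-eGFP+ libraries 0 and 1.

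Hbb-b2 had 95.7, 9.02 and 122 FPKM in Epor-eGFP+ libraries 0, 1 and 2, against 10.3, 4.06 and 58.5 FPKM in Epor-eGFP- libraries 0, 1 and 2. Epor-eGFP+ library 1 was here below Epor-eGFP- library 0. The log2 fold change was the smallest of the 5, at 1.71 (95% interval −1.10 to 4.52, adjusted p = 0.267).

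Hbb-bs had 14.1, 2.89 and 118 FPKM in Epor-eGFP+ libraries 0, 1 and 2, against 1.04, 0.00153 and 20.8 FPKM in Epor-eGFP- libraries 0, 1 and 2. It was the lowest of the globins in all 6 libraries, although close to Hbb-b2 in Epor-eGFP+ library 2, and Epor-eGFP- library 2 lay above Epor-eGFP+ libraries 0 and 1. The log2 fold change was 2.43 (95% interval −1.12 to 5.98, adjusted p = 0.216).

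**Figure D1:**
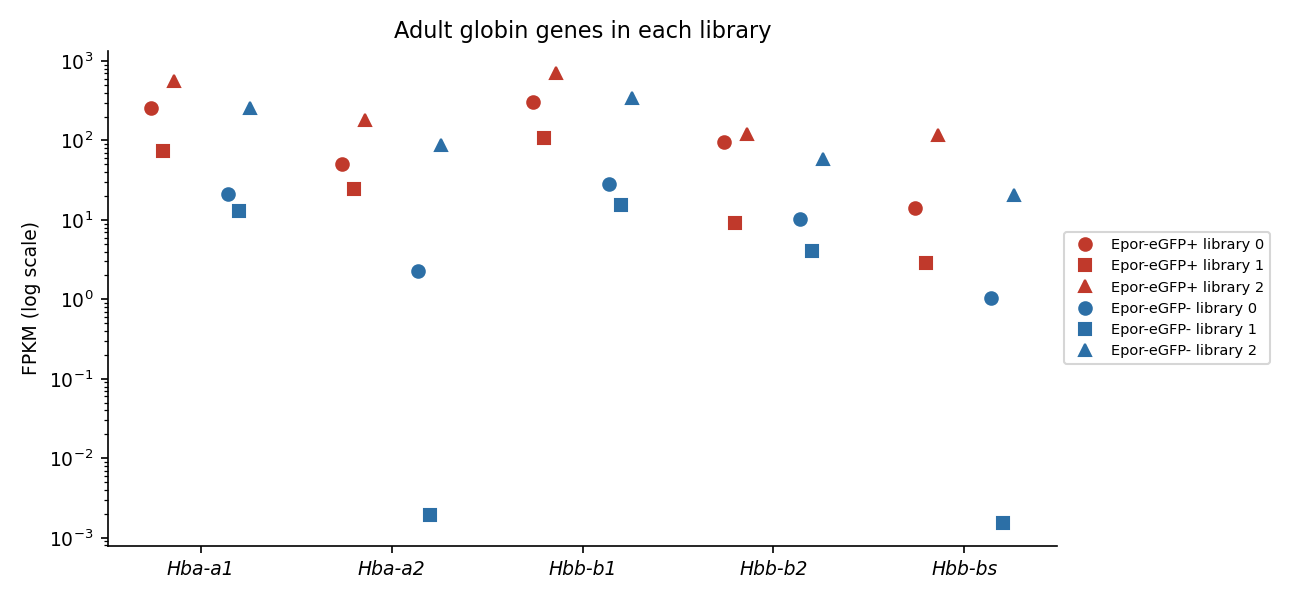
FPKM of the 5 adult globin genes on a log axis, with each point a library, Epor-eGFP+ in red on the left and Epor-eGFP- in blue on the right, and the symbol giving the column number. For each gene the triangles (number 2) are highest in both groups, and the blue triangle overlaps the red points.

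In the fit with the group as its only term, 0 of the 5 globins were called higher by limma at an adjusted p below 0.05, where 22.7% of 10964 tested genes were called higher and 26.3% lower. The unadjusted p of the 5 ran from 0.0853 to 0.193. When the column number entered as a replicate block, 5 of 5 were called higher, where 28.0% of tested genes were called higher and 30.4% lower. The adjusted p with the block was 0.0108 for Hba-a1, 0.0166 for Hba-a2, 0.0108 for Hbb-b1, 0.0271 for Hbb-b2 and 0.00141 for Hbb-bs. The 5 genes share sequence and move together, so their calls are not 5 separate observations. All 5 were higher in Epor-eGFP+ for all 3 numbers, which held for 38.4% of tested genes, and for 0 of 5 did all Epor-eGFP+ libraries lie above all Epor-eGFP- libraries, which held for 28.4%. The size of the difference rested on single libraries. In the fit without a block, the log2 fold changes of the 5 genes ran from 1.22 to 3.37 without Epor-eGFP+ library 0, from 2.86 to 3.86 without Epor-eGFP+ library 1 and from 1.05 to 2.44 without Epor-eGFP+ library 2. They ran from 1.50 to 2.71 without Epor-eGFP- library 0, from 0.92 to 1.86 without Epor-eGFP- library 1 and from 2.70 to 5.10 without Epor-eGFP- library 2. Of these omissions, the last gave 3 of 5 called and the others 0, and leaving out both libraries numbered 2 gave 4 of 5.

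The sums showed the same overlap. The alpha sum was 309, 98.4 and 745 FPKM in Epor-eGFP+ libraries 0, 1 and 2, against 23.4, 12.9 and 347 FPKM in Epor-eGFP- libraries 0, 1 and 2 (log2 difference 2.59, exact two-sided permutation p = 0.3). The beta sum was 418, 118 and 940 FPKM in Epor-eGFP+ libraries 0, 1 and 2, against 39.7, 19.3 and 424 FPKM in Epor-eGFP- libraries 0, 1 and 2 (log2 difference 2.39, exact permutation p = 0.3). The smallest p that 3 against 3 libraries allow is 0.1. By number, an exact two-sided sign-flip permutation test over the 3 pairs gave p = 0.25 for either sum, the smallest that 3 pairs allow.

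The alpha to beta ratio varied far less between libraries than the globin level. The ratio of the alpha to the beta sum was 0.739, 0.834 and 0.793 in Epor-eGFP+ libraries 0, 1 and 2, against 0.590, 0.668 and 0.817 in Epor-eGFP- libraries 0, 1 and 2. The highest ratio was 1.41 times the lowest, whereas the globin sum of the highest library was 52.4 times that of the lowest. The ratio averaged 0.789 ± 0.0478 in Epor-eGFP+ cells and 0.691 ± 0.116 in Epor-eGFP- cells (SD, n = 3 each), and the groups overlapped (log2 difference 0.20, exact two-sided permutation p = 0.3). Leaving out each library in turn gave log2 differences from 0.093 to 0.33. By number, the ratio was higher in the Epor-eGFP+ library for numbers 0 and 1 and lower for number 2 (exact sign-flip p = 0.5). Adjusted by Benjamini-Hochberg over the 4 quantities tested (alpha, beta, both together and the ratio), the permutation p stayed at 0.3 and the sign-flip p was 0.333 for the sums and 0.5 for the ratio. The ratio depends on the authors' gene lengths for FPKM, so its distance from 1 is not read as an imbalance.

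Within the alpha pair, Hba-a1 held 83.9%, 74.8% and 75.4% of the alpha FPKM in Epor-eGFP+ libraries 0, 1 and 2, against 90.3%, 99.98% and 74.4% in Epor-eGFP- libraries 0, 1 and 2. The share came closest to all in the library with the fewest globin transcripts, Epor-eGFP- library 1, where Hba-a2 and Hbb-bs were both close to 0. Within the beta trio, Hbb-b1 held 73.7%, 89.9% and 74.5% in Epor-eGFP+ libraries 0, 1 and 2, against 71.4%, 78.9% and 81.3% in Epor-eGFP- libraries 0, 1 and 2. Between the leading genes of each cluster, the ratio of Hba-a1 to Hbb-b1 averaged 0.779 ± 0.0755 in Epor-eGFP+ cells and 0.779 ± 0.0573 in Epor-eGFP- cells. Across the 6 libraries, which include both groups, Pearson's r of log2(FPKM + 1) was 0.9986 between Hba-a1 and Hbb-b1, and over all pairs of the 5 genes it ran from 0.888 to 0.9986, the lowest being Hba-a2 with Hbb-b2.

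**Figure D2:**
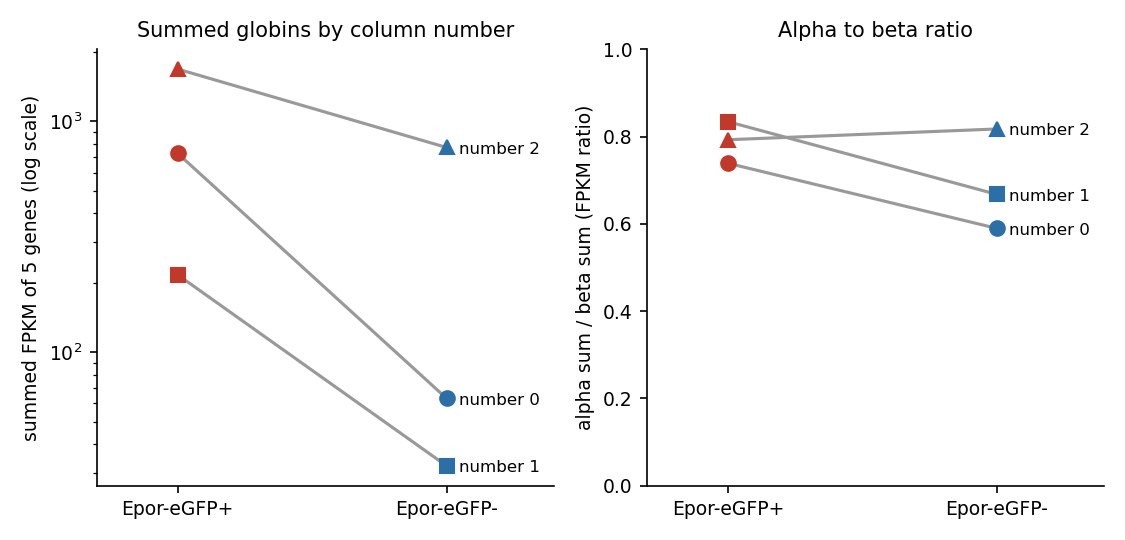
Left, summed FPKM of the 5 globins on a log axis, and right, the ratio of the alpha to the beta sum, with Epor-eGFP+ libraries in red, Epor-eGFP- libraries in blue and lines joining libraries of the same column number. The sums run from 32.2 to 1686 FPKM and fall along every line, while the ratios all lie between 0.590 and 0.834.

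The globins differed between column numbers as well as between groups. In both groups, all 5 genes were lowest in library 1, in between in library 0 and highest in library 2, an order seen in both groups for 9.47% of tested genes. This order was noticed in the globins first. Of the sum of squares of log2(FPKM + 1), the column number held 57.0% for Hba-a1, 54.4% for Hba-a2, 56.8% for Hbb-b1, 69.2% for Hbb-b2 and 71.7% for Hbb-bs, and the group held 23.2% to 36.8%. The number has 2 degrees of freedom and the group 1, and per degree of freedom the group held more for Hba-a1 (36.5% against 28.5%), Hba-a2 (36.8% against 27.2%) and Hbb-b1 (36.7% against 28.4%), and the number more for Hbb-b2 (34.6% against 23.2%) and Hbb-bs (35.8% against 27.7%). Over all tested genes the median share was 68.0% between groups and 17.9% between numbers. The means of the 3 numbers spanned 3.56 (Hbb-b1) to 4.69 (Hbb-bs) on the log2 scale, against 0.19 for the median tested gene. The smallest of these globin spans was reached by 7 of 10964 genes (0.0638%), the 5 globins by definition and Lyz2 and Prg2. Both of the latter are listed at 0 in a single library.

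By limma's F-test for the column number in the fit with both terms, 1 of the 5 globins, Hbb-bs, passed at an adjusted p below 0.05 (0.0367), where 0.0456% of tested genes passed. The adjusted p was 0.160 for Hba-a1, 0.165 for Hba-a2, 0.160 for Hbb-b1 and 0.160 for Hbb-b2. The unadjusted p was 0.00410, 0.00869, 0.00419 and 0.00393 for these 4 in the same order. The call of Hbb-bs was lost under several settings. The lowest adjusted p of the 5 was 0.0679 without the mean-variance trend, 0.142 with a pseudocount of 0.1, 0.0518 with quantile normalization, 0.0552 without the libraries numbered 0 and 0.162 without those numbered 2. No label says what a column number marks.

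Heme supply genes moved with the group, and Alas2 moved with the globins. Of 17 tested genes for haemoglobin assembly and heme supply, 12 rose, 1 fell and 4 had no call, where 22.7% of all tested genes rose and 26.3% fell. With the replicate block 14 rose and 1 fell, against 28.0% and 30.4% of all tested genes. The median log2 fold change was 0.86, against −0.01 over all tested genes. Tfrc, the transferrin receptor that brings iron into erythroblasts, rose by 1.68 (SE 0.18, limma adjusted p = 0.000868). Cpox (1.31) and Alad (1.15), enzymes of the heme pathway, rose as well. Eif2ak1, the kinase that slows globin translation when heme is short, fell by 0.25 on the log2 scale. Ahsp, the chaperone of free alpha chains, was not analysed here.

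Alas2, the erythroid enzyme that starts heme synthesis, had 15.3, 4.73 and 29.2 FPKM in Epor-eGFP+ libraries 0, 1 and 2, against 1.37, 0.539 and 10.5 FPKM in Epor-eGFP- libraries 0, 1 and 2. It overlapped between the groups and followed the globin order of libraries in both. Its log2 fold change was 2.02 (SE 0.86), with an adjusted p of 0.0901 by limma without the block and 0.00397 with it. The globin sum was 47.6, 45.8 and 57.7 times the Alas2 level in Epor-eGFP+ libraries 0, 1 and 2, against 45.9, 59.7 and 73.4 times in Epor-eGFP- libraries 0, 1 and 2. This ratio varied 1.60-fold over libraries in which the globins themselves varied 52.4-fold.

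By Pearson's r of log2(FPKM + 1) with the log2 globin sum over the 6 libraries, Alas2 was the most similar of 6387 genes averaging 10 FPKM or more (r = 0.992). Mpv17l2 (0.981), Lamtor2 (0.977), Sgta (0.976), Pepd (0.973) and Pik3r2 (0.971) came next. These varied far less. Mpv17l2 ran from 21.2 to 26.1 FPKM in Epor-eGFP+ libraries and from 19.0 to 23.7 FPKM in Epor-eGFP- libraries. With 6 points and 6387 candidates, high values of r arise easily, and these are descriptions.

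Most genes of terminal erythroid cells and of the red cell rose. Of 37 tested, 26 rose, 3 fell and 8 had no call (median log2 fold change 1.52), where 22.7% of all tested genes rose and 26.3% fell. With the replicate block 28 rose and 3 fell, against 28.0% and 30.4% of all tested genes. On the log2 scale Car1, a carbonic anhydrase of red cells, rose by 5.18. Ermap and Rhd, which encode surface proteins of the red cell, rose by 3.65 and 3.63, and Hebp1, a heme-binding protein, by 3.47. The 3 that fell were Slc2a1, a glucose transporter, Cd24a, a surface protein that is also on granulocytes, and Bnip3l, which acts in clearing mitochondria from reticulocytes. In 3 of the 37 (Bpgm, Blvrb and Fam210b) the libraries had the globin order in both groups, close to the 9.47% of all tested genes.

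Slc4a1, the anion exchanger band 3, had 43.5, 8.83 and 22.7 FPKM in Epor-eGFP+ libraries 0, 1 and 2, against 3.07, 0.147 and 0.901 FPKM in Epor-eGFP- libraries 0, 1 and 2. It was highest in library 0 of both groups, not in library 2, and the groups did not overlap (log2 fold change 3.40, SE 0.63, limma adjusted p = 0.00512).

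The contrast was sharpest in Epor-eGFP- library 2. Its globin sum was 16.2 times the mean of Epor-eGFP- libraries 0 and 1 and 88.0% of the Epor-eGFP+ mean. Alas2 there was 11.0 times and Bpgm, the enzyme that makes the red cell's oxygen affinity regulator, 1.72 times the mean of those libraries, at 64.1% and 78.5% of their Epor-eGFP+ means. Slc4a1 was 0.560 times, Klf1 0.612 times, Rhd 0.729 times and Car1 0.498 times it, at 0.804% (Rhd) to 5.61% (Klf1) of their Epor-eGFP+ means. The globin sum was 106 times Klf1 in Epor-eGFP+ library 2 and 713 times Klf1 in Epor-eGFP- library 2, and ran from 11.9 to 37.1 times Klf1 in the other 4 libraries of both groups. These genes were chosen after their values were seen. Which cells carried the globin transcripts was not tested.

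**Figure D3:**
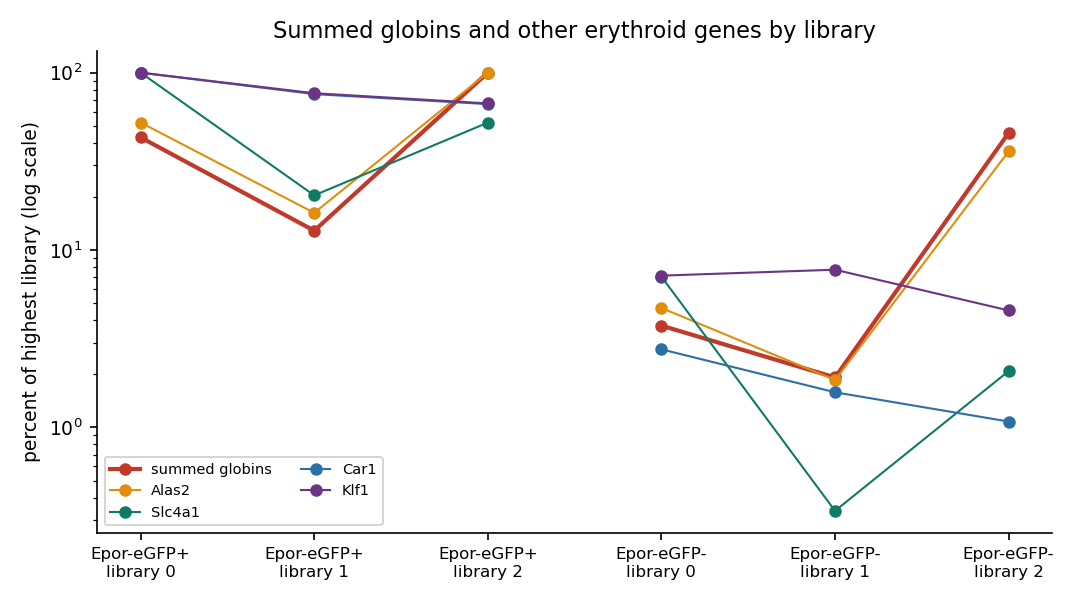
Summed globins and 4 erythroid genes in each library, as percent of their own highest library on a log axis, with the 3 Epor-eGFP+ libraries left of the 3 Epor-eGFP- libraries and lines that only join points of an item (Car1 lies under Klf1 in Epor-eGFP+). In Epor-eGFP- library 2 the globins (45.7%) and Alas2 (36.0%) stand apart from Klf1 (4.55%), Slc4a1 (2.07%) and Car1 (1.08%).

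**Figure D4:**
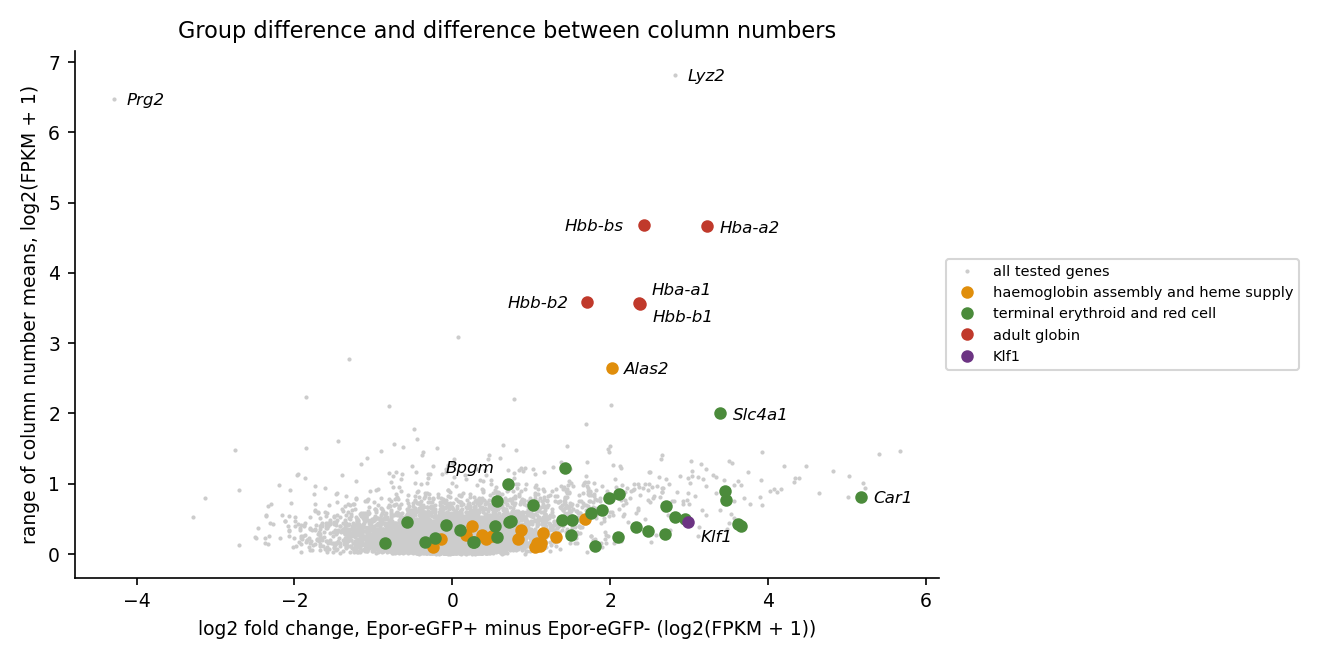
Each point is a gene, with the log2 fold change of Epor-eGFP+ over Epor-eGFP- on the x axis and the span of the 3 column number means on the y axis, both on log2(FPKM + 1). The globins (3.56 to 4.69) and Alas2 (2.65) stand above the red cell genes, whose median span is 0.45, and Lyz2 and Prg2 lie higher still.

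Klf1, the erythroid factor that binds the CACCC box of the beta globin promoter, had 23.8, 18.2 and 15.9 FPKM in Epor-eGFP+ libraries 0, 1 and 2, against 1.70, 1.84 and 1.08 FPKM in Epor-eGFP- libraries 0, 1 and 2. It rose by 2.99 (SE 0.18, limma adjusted p = 0.000261), with its highest Epor-eGFP+ value in library 0, where the globins were not highest. Of 20 tested transcription factors that act on the globin genes, 3 rose (Klf1, Myb and Tal1), 11 fell and 6 had no call. Over all tested genes 22.7% rose and 26.3% fell. With the replicate block 5 of the factors rose and 11 fell, against 28.0% and 30.4% of all tested genes. Myb, a factor of erythroid progenitors, rose by 1.15. Bach1, a repressor released from DNA by heme, and Nfe2, which binds the locus control region of the beta cluster, fell by 1.22 and 1.09 on the log2 scale. Gata1, the main erythroid GATA factor, had 22.0, 17.8 and 16.7 FPKM in Epor-eGFP+ libraries 0, 1 and 2, against 21.4, 18.1 and 15.5 FPKM in Epor-eGFP- libraries 0, 1 and 2. It did not pass (log2 fold change 0.04, 95% interval −0.30 to 0.38, adjusted p = 0.829), and it is also a gene of eosinophils and megakaryocytes.

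The genes listed as neighbours of the globin clusters did not span the column numbers as the globins did (median span 0.14 on the log2 scale). Exact positions were looked up for Nprl3 and Mpg, not for the others. Of 13 tested, 0 rose, 6 fell and 7 had no call (median −0.27). Over all tested genes 22.7% were called higher and 26.3% lower, and 0 of the 5 globins were called in that fit. With the replicate block 2 of the 13 rose and 7 fell, against 28.0% and 30.4% of all tested genes. By an unadjusted limma p below 0.05 without the block, 2 were higher, Polr3k and Rrm1, whose positions were not looked up. Nprl3, whose introns hold the enhancers of the alpha globin genes, had 5.89, 5.08 and 4.89 FPKM in Epor-eGFP+ libraries 0, 1 and 2, against 5.05, 4.65 and 5.08 FPKM in Epor-eGFP- libraries 0, 1 and 2. The listed genes that fell most were genes of the Trim family on chromosome 7, Trim12a (−0.78), Trim12c (−0.68), Trim34a (−0.64) and Trim30a (−0.60), which have close paralogs. Hbq1b, a theta-like globin between the alpha genes, was under the filter on low values, with 1.59, 0.393 and 0.805 FPKM in Epor-eGFP+ libraries 0, 1 and 2, against 0.0167, 0 and 0.216 FPKM in Epor-eGFP- libraries 0, 1 and 2. The other 10 symbols of the globin family that were listed, Hbb-bt among them, were not analysed here.

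Of 12 tested genes that macrophages use for free haemoglobin and heme, 9 rose, 1 fell (Hp) and 2 had no call (Lrp1 and Hmox2). Their median log2 fold change was 1.35, and over all tested genes 22.7% rose and 26.3% fell. With the replicate block Lrp1 fell as well (adjusted p = 0.00765). Hmox1, which breaks down heme, had 983, 440 and 1754 FPKM in Epor-eGFP+ libraries 0, 1 and 2, against 81.6, 60.6 and 92.6 FPKM in Epor-eGFP- libraries 0, 1 and 2 (log2 fold change 3.55, SE 0.46, adjusted p = 0.00148). Cd163, the receptor for haemoglobin bound to haptoglobin, had 115, 58.2 and 267 FPKM in Epor-eGFP+ libraries 0, 1 and 2, against 4.34, 2.66 and 3.19 FPKM in Epor-eGFP- libraries 0, 1 and 2. Spic, a factor of heme-handling macrophages, rose by 4.08, Cd163 by 4.82 and Slc40a1, the iron exporter, by 3.77. Hp, haptoglobin, fell by 0.77. Lrp1, Hmox1, Hmox2, Fth1 and Ftl1, 5 of the 12, had the globin order of libraries in both groups, which held for 9.47% of all tested genes. Cd163 had it in Epor-eGFP+ only. The summed macrophage markers were also lowest in library 1 and highest in library 2 of each group. The sums were 4192, 2624 and 8883 FPKM in Epor-eGFP+ libraries 0, 1 and 2, against 798, 677 and 925 FPKM in Epor-eGFP- libraries 0, 1 and 2. Singly, 4 of the 18 markers had the globin order in both groups. Vcam1, for example, had 40.4, 30.5 and 24.5 FPKM in Epor-eGFP- libraries 0, 1 and 2. The part of macrophages in the globin values was not tested. Megakaryocyte and platelet markers, which a marrow sort can also hold, had their peak in library 1 and their lowest level in library 2 of each group, with sums of 142, 216 and 104 FPKM in Epor-eGFP+ libraries 0, 1 and 2, against 89.7, 142 and 59.0 FPKM in Epor-eGFP- libraries 0, 1 and 2. Of 12 tested, 2 were higher and 1 lower without the block, against 22.7% and 26.3% of all tested genes. With the block 8 were higher and 1 lower, against 28.0% and 30.4%.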

How the data were processed

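The deposited values are FPKM per gene in a single table of 6 libraries, computed by the authors. The submitters' processing notes name build mm10, Cufflinks 2.2.1, TopHat2 2.1.0, Trimmomatic 0.35 and bcl2fastq 2.19.1.403, without their roles. No source used here gives the annotation, filters or scaling. FPKM hold no counts, so depth is unknown.

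Columns were assigned to groups by name. For log2(FPKM + 1), limma 3.58.1 in R 4.3.3 fitted a model of the group alone (eBayes with trend, two-sided) over 10964 genes averaging 1 FPKM or more, with Benjamini-Hochberg adjustment over all of them at 0.05. Fold changes are Epor-eGFP+ minus Epor-eGFP- and understate changes of low genes. Sums and ratios were tested by exact permutation.

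Libraries of the same column number deviated together from their group means (r = 0.252, 0.377 and 0.348 across genes for numbers 0, 1 and 2), all above the 0.1 set as minimum. The pairing comes from the data, not from a label, and the blocked fit is an alternative. The fits were also tested on simulated data. The noise there was independent between libraries, unlike the shared deviations just given, and no result here rests on that test. The members, lists and tests were chosen with earlier results of these data known. Genes named are the members, up to 4 called genes of each list with the largest change, 10 fixed genes and the 6 genes most like the globin sum, and others are named where a small count or a contrast was singled out after seeing values. Some genes the rule names are not reported here. Sequences came from GENCODE M21 transcripts and RefSeq promoters. Alternatives were other pseudocounts, filters and scalings, no trend, the block, and libraries left out.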

Additional observations from a re-analysis of the deposited data

How the results depend on the processing

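Of 90 alternatives for single globin genes, 78 kept direction and call, 12 gained a call and 0 reversed. The size of the log2 fold changes depended on the pseudocount. Over the 5 genes they ran from 1.80 to 4.46 at 0.1, from 1.71 to 3.23 at 1 and from 1.45 to 2.23 at 5. At pseudocounts of 0.1, 1 and 5, Hba-a2 had 4.46, 3.23 and 2.16, and Hbb-bs had 3.67, 2.43 and 1.52. Hba-a1 changed less, with 2.41, 2.37 and 2.19. With the replicate block 5 of 5 globins were called, against 0 without it. Leaving out libraries singly or by number gave 0 to 4, with 3 without Epor-eGFP- library 2 and 4 without both libraries numbered 2. Genes called higher over the whole table ran from 492 to 2479 and genes called lower from 921 to 2695 over the same omissions. The lowest counts came without both libraries numbered 0, and 1634 were called higher without Epor-eGFP+ library 0. For the column number, 1 globin was called, and 0 with a pseudocount of 0.1, with quantile normalization or without the trend, and 0 to 1 with a number left out. The alpha to beta log2 difference ran from 0.093 to 0.33 with libraries left out and turned to −3.13 with Hbb-bs alone as beta, whose value of 0.00153 FPKM in Epor-eGFP- library 1 is the divisor there. With Hba-a1 alone as alpha it was 0.033 (exact permutation p = 0.8), against 0.20 with both alpha genes. With Hbb-b1 alone as beta it was 0.16 (exact permutation p = 0.3). The sign-flip p of the sums, with the replicate block, was 0.25. With a library left out, the log2 difference ran from 1.54 to 3.83 for the sum of all 5, from 1.65 to 4.03 for alpha and from 1.47 to 3.70 for beta. With a number left out, it ran from 1.94 to 3.14, from 2.02 to 3.33 and from 1.88 to 3.01 in that order. The share of calls that were higher was 59.5% after scaling to a common total (3053 higher, 2082 lower) and 46.3% as deposited. Blocked values are given above where they change a call or count. Adding Hbb-bt was not run. Nothing can be said of counting error, since depth is unknown.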
